A study of Arabidopsis thaliana with 66 samples.

Results

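The class III peroxidases are a large plant family of secreted haem enzymes. In the cell wall they use hydrogen peroxide to join phenolic groups, which stiffens the wall and builds lignin and the Casparian strip, and some of them can also make reactive oxygen. Each gene tends to act in its own cell type, so that in roots separate members mark growing root hairs, the endodermis, the xylem and the response to attack. A list of 50 Arabidopsis loci of this family, of 73 known, was followed by the estimated read counts of each locus. The list was chosen with earlier results of these data known. Counts of its members beside the share of all genes are therefore a description, not a test of the family. Of the 50 loci, 49 were found among the 27313 loci of the files, and AT1G05250 is not analysed here. By general knowledge 9 of the 50 belong to root hairs, 4 to the endodermal barrier, 5 to lignin and 14 to the oxidative burst and stress, and 18 were given no role.

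Roots of 4 genotypes were sequenced after 14 days of exposure, in 66 libraries that form 22 groups of 3. The genotypes were N8507, N8508 and N9416, mutant lines whose changed genes are not given in the labels, and the wild type Col-0. The media were nanoP+Th (phosphate-free medium with nano-hydroxyapatite, a sparingly soluble calcium phosphate, and thorium), nanoP (the same without thorium), -P+Th (phosphate-free with thorium), -P (phosphate-free), mock+Th (the control medium with thorium, used here for N8507 and N9416) and mock (the untreated control). Thorium is a radioactive heavy metal that binds phosphate tightly. The labels do not say whether the libraries of a group came from separate plants, so the p-values reflect no more than how much these libraries vary, which may be technical.

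Each library held 9396787 to 16756417 assigned reads. CPM means counts per 1e6 reads, scaled by TMM over all 66 libraries. Markers of roots were present: the summed level of 8 endodermis markers had group means of 280 to 751 CPM, and that of 8 photosynthesis genes 17 to 44.5 CPM. The Col-0 -P+Th libraries stood apart in one respect. A set of 46 loci stayed under 0.5 CPM in the other 12 Col-0 libraries, while every N8508 library outside -P+Th had at least 5 CPM of each. Of these, 2, 23 and 40 reached 0.5 CPM in Col-0 -P+Th replicates 1, 2 and 3. No peroxidase of the list is among these loci. The median level of the 46 loci was 0, 0.609 and 1.87 CPM in those libraries, against 26.8 CPM in the N8508 libraries outside -P+Th. The same check gave 2, 24 and 40 of 45 loci with N8507 as the line, and 2, 22 and 38 of 43 with N9416. In the reverse direction, 14 loci were expressed in Col-0 and silent in N8508 by these limits. Of those 14, 0 were under 0.5 CPM in each Col-0 -P+Th library, and 11, 14 and 14 were over 5 CPM. Whether the libraries labelled Col-0 -P+Th hold RNA of Col-0 alone was not tested, and each Col-0 -P+Th value below carries that limit. Col-0 counts that move without one of these libraries are given with both values. Libraries of N8508 and N9416 were numbered apart from those of N8507 and Col-0, so line and library series cannot be told apart for them. In bulk roots, fewer cells of a type and less RNA per cell cannot be told apart either.

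Some members share sequence, and reads of such pairs are uncertain. In the RefSeq coding sequences of TAIR10.1, the 978 bases of AT1G05240 are identical to those of AT1G05250, so the value given here for AT1G05240 stands for both loci. PRXCA (AT3G49110) shares 17.3% of its 31-base words with another locus, chiefly PRXCB (AT3G49120), to which it is 90.5% identical. Prx37 (AT4G08770) and AT4G08780 share 19.5%, AT4G37520 and AT4G37530 share 23.4% and 23.9%, and AT2G38380 and AT2G38390 share 8.8%. Of the 50 loci, 34 share no such word with any other.

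Together the 49 loci took a median of 0.685% of all transcripts (SD 0.135 over 66 libraries), as the share of summed TPM, the deposited length-scaled level per 1e6 transcripts. AT3G32980, placed in the stress group, was the most abundant of the listed loci by its median over the 66 libraries, at 799 TPM, with a range of 305 to 1200 TPM. AT3G01190, with no assigned role, followed at 792 TPM and ranged far more widely, from 42.6 to 1640 TPM. PRXR1 (AT4G21960), a family member outside the list, was higher than both. It had means of 5720 CPM in N8508 mock and 9880 CPM in Col-0 nanoP, against 1070 and 778 CPM for AT3G32980. Prx37, which is known to cross-link phenolics and to limit growth, had a median of 591 TPM. The leading root hair gene, AT1G05240, had a median of 178 TPM, RCI3 (AT1G05260, a cold and dehydration induced gene) 219 TPM, and PER64 (AT5G42180, which acts at the Casparian strip) 53.1 TPM. PRXCB, the best known source of the apoplastic oxidative burst, had a median of only 18.2 TPM but reached 755 TPM in its highest library. PRX52 (AT5G05340), which acts in lignification, had a median of 5.72 TPM and a highest library of 93.7 TPM. AT5G58390 had no read in any library, AT1G77100 had 1 read, AT5G58400 17 reads and AT3G50990 30 reads over all 66, and these 4 loci were not tested. The other 45 passed the filter on low counts in N8507, N9416 and Col-0, and 43 did in N8508.

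**Figure D1:**
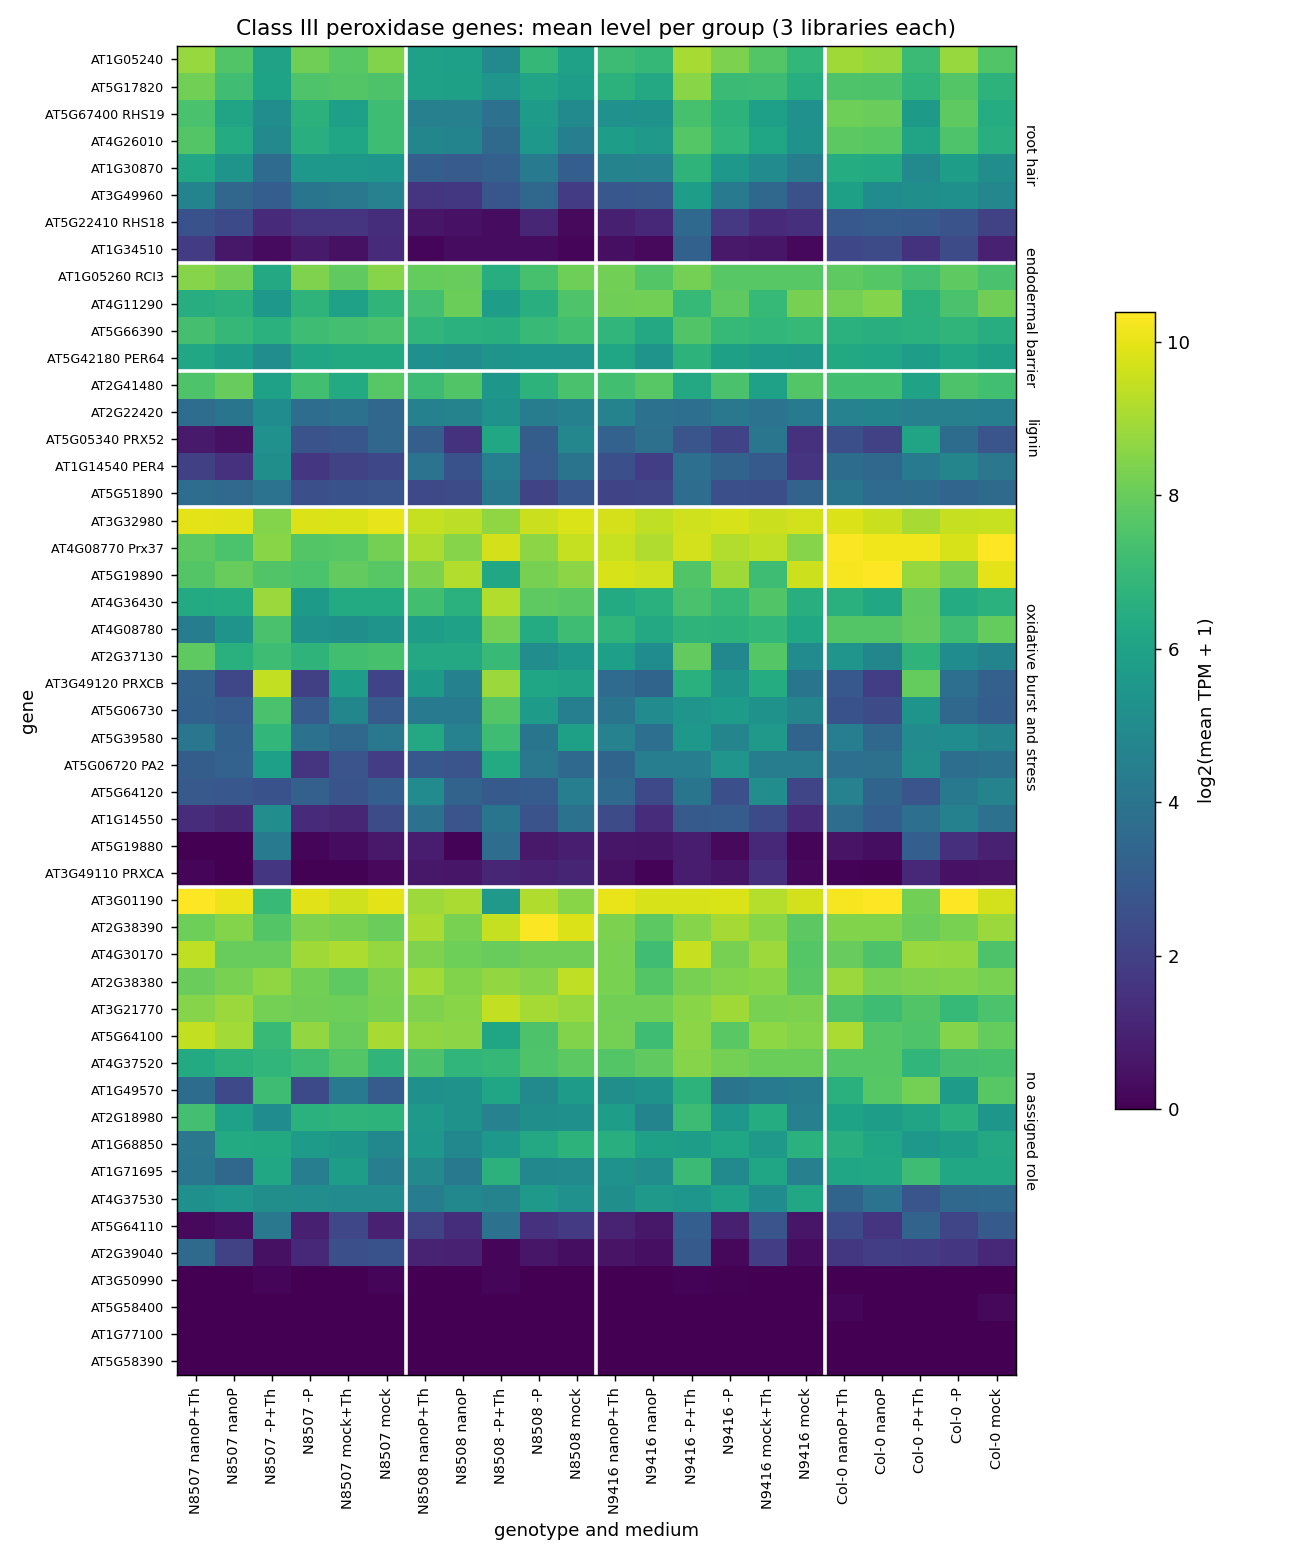
Mean level of each of 49 class III peroxidase genes (rows, grouped by role and ordered by level) in each of 22 groups (columns, 3 libraries each), as log2(mean TPM + 1). AT3G32980 and AT3G01190 are bright in most groups, and 4 loci at the bottom are near 0 throughout. The root hair rows brighten and darken together across the columns.

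Thorium on phosphate-free medium changed more than 20 of the tested members in each mutant line and 20 of 45 in Col-0. In -P+Th against -P, 19 members were higher and 14 lower in N8507, 18 and 16 in N8508, 22 and 6 in N9416, and 13 and 7 in Col-0 (edgeR quasi-likelihood test, adjusted p under 0.05 over all genes). Across all genes tested, 15.9% were higher and 13.9% lower in N8507 (29.8% in all), 23.2% and 23.9% in N8508 (47.2%), 20.1% and 19.9% in N9416 (40.0%), and 11.9% and 13.5% in Col-0 (25.4%). Of the members, 6 were higher in all 4 genotypes, namely PRXCB, Prx37, AT5G19880, AT1G49570, AT1G71695 and AT5G64110, and 2 were lower in all 4, AT2G41480 and AT4G11290. A further 12 moved in opposite directions in different genotypes. How many of all genes were shared or opposed in this way was not counted, so these counts describe the listed members only.

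Most calls in the oxidative burst and stress group, whose members make or use reactive oxygen under attack or stress, were increases. Of its 14 members, 10 were higher and 1 lower in N8507, 10 and 2 in N8508, and 6 and 1 in N9416. In Col-0 all 9 called were higher. The median log2 fold change of the group was 3.32 in N8507, 1.60 in N8508, 0.48 in N9416 and 1.21 in Col-0, while the median over all genes lay between -0.02 and 0.01. In Col-0 the number of higher members was 2 without -P replicate 2, 5 without -P replicate 3 and 6 without -P+Th replicate 1, the Col-0 library with the lowest median effective length (the share of each transcript that its fragments could cover, as Salmon gives it). In N9416 it was 3 without -P+Th replicate 3 or without -P replicate 2.

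PRXCB was among the genes that changed most. Its level was 878, 877 and 1030 CPM in N8507 -P+Th, against 3.24, 3.73 and 3.50 CPM in N8507 -P. Col-0 had 453, 365 and 194 CPM in -P+Th, against 20.0, 11.5 and 15.7 CPM in -P. In both genotypes every thorium library lay far above every -P library, with log2 fold changes of 8.07 ± 0.55 (SE, n = 3 libraries each, edgeR adjusted p = 3.8e-08) in N8507 and 4.40 ± 0.40 (edgeR adjusted p = 5.4e-06) in Col-0. The gene rose by 2.68 ± 0.42 on the log2 scale in N8508 and by 1.19 ± 0.40 in N9416, where its -P level was already 46.9 to 149 CPM and 24.9 to 85.0 CPM. PRXCA, its near copy, was low: 1.52, 1.07 and 6.22 CPM in N8507 -P+Th, against 2 reads in all 3 N8507 -P libraries, so no fold is given (edgeR adjusted p = 0.00662). How many of these reads came from PRXCB was not tested.

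AT5G19880 was low on -P in N8507, N8508 and N9416, with 7, 26 and 9 reads in the whole -P group of each. It had 20.2, 19.8 and 35.1 CPM in N8507 -P+Th, against 0.203, 0 and 0.269 CPM in N8507 -P, and 15.2, 15.2 and 13.1 CPM in N8508 -P+Th, against 0.504, 0.537 and 1.36 CPM in N8508 -P. The log2 fold changes were 7.25 ± 0.87 and 4.13 ± 0.44 (edgeR adjusted p = 2.1e-05 and 2.6e-06), without overlap in either line. In Col-0 it had 12.2, 15 and 4.20 CPM in -P+Th, against 4.02, 1.54 and 0.652 CPM in -P. Those groups lay close together, and the Col-0 call (2.30 ± 0.71, edgeR adjusted p = 0.0286) was lost without -P+Th replicate 1, -P+Th replicate 2, -P replicate 2 or -P replicate 3.

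AT2G37130 was the stress gene that led in N9416. It had 368, 328 and 337 CPM in N9416 -P+Th, against 43.7, 37.9 and 43.0 CPM in N9416 -P. The rise of 3.11 ± 0.21 (log2, edgeR adjusted p = 1.8e-08) varied only from 3.04 to 3.14 when any 1 library was left out, and the gene rose by 1.91 in both N8508 and Col-0. AT5G39580 had 156, 174 and 174 CPM in N8508 -P+Th, against 8.16, 24.2 and 25.6 CPM in N8508 -P. That is a log2 fold change of 3.14 ± 0.44, with one of 3.31 ± 0.33 in N8507. PA2 (AT5G06720), AT5G06730 and AT1G14550 rose by 5.05, 4.77 and 4.72 in N8507 on the log2 scale.

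AT5G19890 was lower with thorium in 2 lines. It had 84.7, 81.4 and 84.3 CPM in N8508 -P+Th, against 278, 288 and 551 CPM in N8508 -P, and 275, 227 and 172 CPM in N9416 -P+Th, against 669, 590 and 538 CPM in N9416 -P. It fell by 2.14 ± 0.25 and by 1.36 ± 0.16 on the log2 scale (edgeR adjusted p = 5.7e-06 and 4.8e-06). In Col-0 it was called higher instead, by 0.64 ± 0.18. AT3G32980, the most abundant member, fell in N8507 and N8508 by 1.21 and 0.95.

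**Figure D2:**
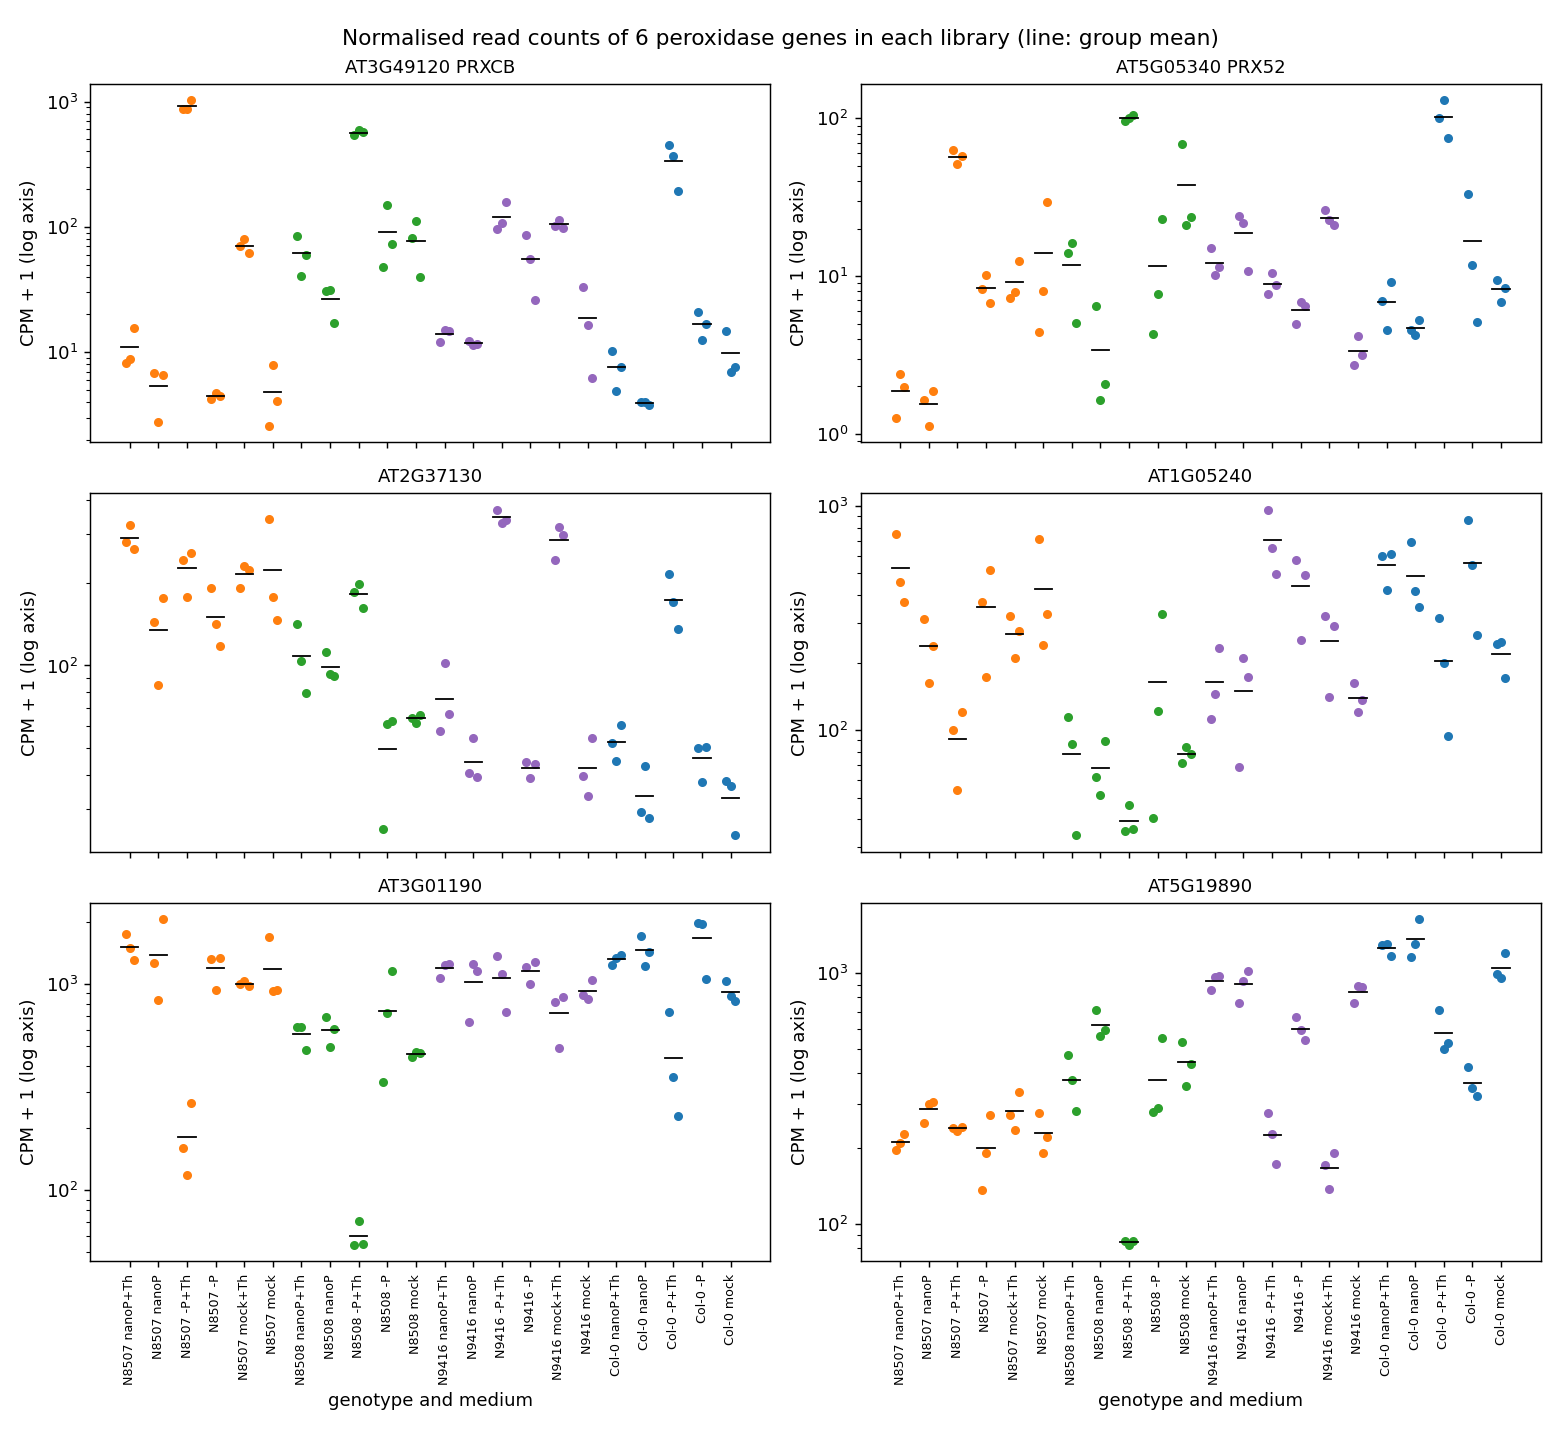
Normalised read count (CPM + 1, log axis) of 6 peroxidase genes in each of the 66 libraries, coloured by genotype, with the group mean as a line. PRXCB is at 878 to 1030 CPM in the 3 N8507 -P+Th libraries, and AT3G01190 is lowest in N8508 -P+Th, at 53.3 to 70.2 CPM.

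The lignin group split by gene. PRX52 had 95.6, 100 and 104 CPM in N8508 -P+Th, against 3.32, 6.66 and 21.9 CPM in N8508 -P, and 100, 130 and 74.3 CPM in Col-0 -P+Th, against 32.1, 10.8 and 4.13 CPM in Col-0 -P. The thorium libraries were tightly grouped in N8508 and above every -P library in both genotypes. The log2 fold changes were 3.22 ± 0.65 and 2.67 ± 0.51 (edgeR adjusted p = 0.00093 and 0.002), and the gene also rose in N8507 by 2.95 ± 0.61. PER4 (AT1G14540), AT2G22420 and AT5G51890 rose in N8507 (4.25, 1.60 and 1.78) and N8508 (1.55, 0.91 and 2.28). AT2G41480 went the other way in all 4 genotypes, with log2 fold changes of -1.12 in N8507, -1.31 in N8508, -1.13 in N9416 and -1.33 in Col-0. Its levels were 78.7, 73.1 and 98.0 CPM in N9416 -P+Th, against 180, 194 and 196 CPM in N9416 -P, and the Col-0 values of 97.3, 60.9 and 73.8 CPM in -P+Th, against 180, 181 and 213 CPM in -P, were nearly the same.

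The root hair group went in opposite directions in different lines. Of the tested root hair members, 4 of 8 were lower in N8507, 3 of 6 in N8508 and 3 of 8 in Col-0, and all of these calls were decreases, while 5 of 8 were higher in N9416, all of them increases. The medians were -1.37, -1.54 and -0.92 in N8507, N8508 and Col-0, and 1.33 in N9416. AT1G05240 had 99.6, 53.0 and 119 CPM in N8507 -P+Th, against 370, 171 and 517 CPM in N8507 -P, a log2 fold change of -1.94 ± 0.46 without overlap (edgeR adjusted p = 0.00402). In Col-0 the values of 315, 198 and 92.7 CPM in -P+Th, against 861, 544 and 265 CPM in -P, overlapped, and the call (-1.48 ± 0.44, edgeR adjusted p = 0.0237) was lost without -P+Th replicate 3, without -P replicate 1 and without -P replicate 2. In N8508 the calls of AT1G05240 (-2.07) and AT4G26010 (-2.10) were both lost without -P replicate 3, and no root hair member was then called, while 6 were called lower without -P replicate 1. AT1G34510 led in N9416, with 14.2, 7.56 and 3.60 CPM in -P+Th, against 0.807, 0.283 and 0.851 CPM in -P (3.71 ± 0.57, edgeR adjusted p = 7e-05). RHS18 (AT5G22410), known as root hair specific, rose there by 2.23 ± 0.55, while RHS19 (AT5G67400) had a log2 value of -1.91 ± 0.50 in N8508 and -1.90 ± 0.51 in Col-0, where the call was lost without -P replicate 1. The N9416 count of 5 was 3 without -P+Th replicate 1 or -P replicate 2. The Col-0 count of 3 was 0 without -P replicate 1, and 1 without -P replicate 2 or -P+Th replicate 3.

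Markers of root hair cells moved with these genes. Of 8 such markers that are not peroxidases, 6 were lower in N8507, 3 lower and 1 higher in N8508, 5 higher in N9416, and 2 lower and 1 higher in Col-0. Their summed level was 55.5 to 78.5 CPM in N8507 -P+Th, against 99.3 to 311 CPM in N8507 -P, and 399 to 694 CPM in N9416 -P+Th, against 132 to 311 CPM in N9416 -P. None of the 8 markers was without reads in any group, and the part of root hair number in the peroxidase values was not tested. Across the 22 groups, log2(CPM + 1) of the 7 root hair members that average at least 2 CPM had pairwise correlations of 0.80 to 0.99 with a median of 0.89. The median with the other members was 0.02, but that covers a wide range. PER64, placed with the barrier, had 0.71 to 0.90 with these 7 genes, against -0.07 to 0.55 within its own group. AT2G18980, with no assigned role, had 0.59 to 0.88 with them, while PRXCB had -0.51 to -0.16. The pattern is thus not particular to the root hair group. The points share libraries and media, so this is a description of 22 group means. The other role groups were looser, with medians of 0.35 (barrier), 0.33 (stress) and 0.28 (lignin).

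**Figure D3:**
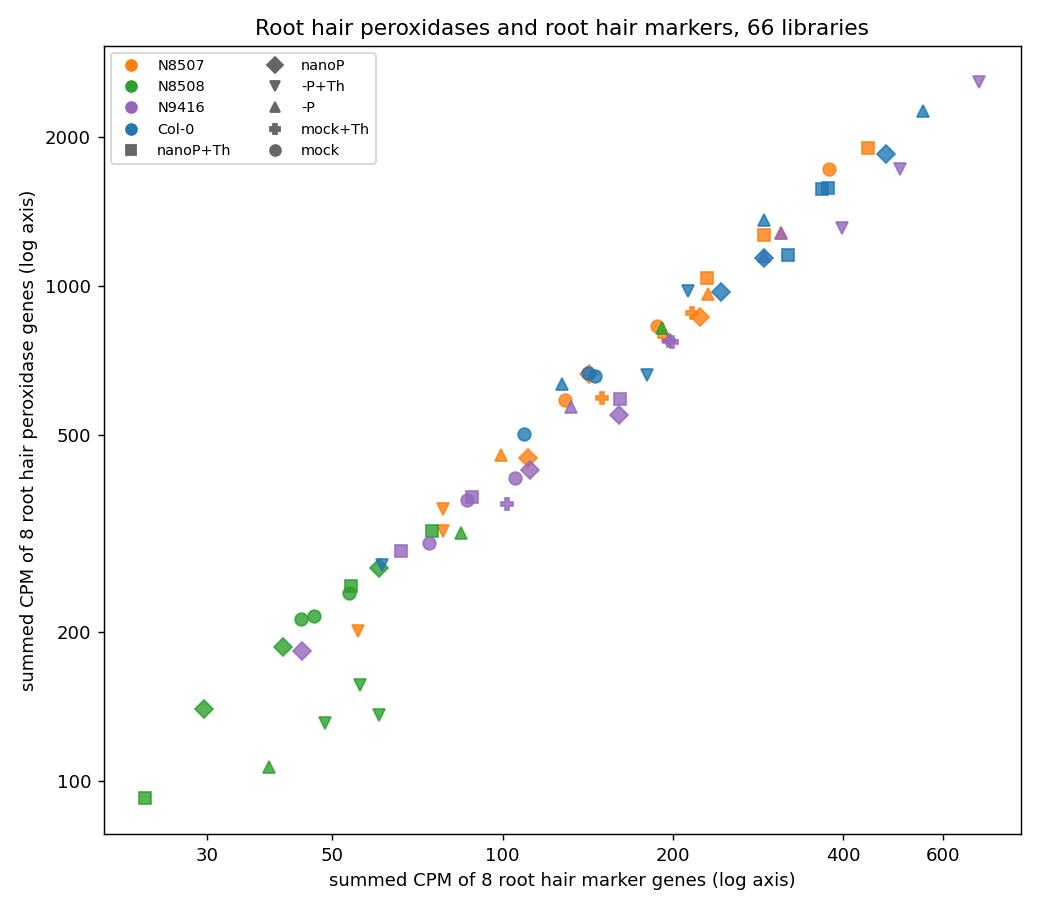
Summed CPM of the 8 root hair peroxidases found in the files (y, log axis) against summed CPM of 8 root hair marker genes (x, log axis) in each of 66 libraries, with colour for genotype and shape for medium. Libraries rich in markers are rich in these peroxidases: most N8508 libraries lie at the low end and the N9416 -P+Th libraries, with marker sums of 399 to 694 CPM, at the high end.

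Of the 4 endodermal barrier genes, 3 were lower in N8507, 3 lower in N8508, 3 higher and 1 lower in N9416, and 1 lower in Col-0. Their median log2 fold changes were -0.96, -0.70, 0.56 and -0.32 in the same order. RCI3 fell by 1.91 ± 0.20 on the log2 scale in N8507, with 99.3, 73.2 and 135 CPM in -P+Th, against 414, 380 and 374 CPM in -P. The same gene rose by 0.51 ± 0.15 in N9416. PER64 fell by 0.91 ± 0.21 in N8507 and rose by 0.84 ± 0.17 in N9416, and AT5G66390, which acts in lignification, fell by 0.55 in N8508 and rose by 0.61 in N9416. Endodermis markers moved the same way there: 5 of 8 were lower in N8507 and 5 of 7 higher in N9416. Of these markers, CASP5 had no read in the 3 N8508 -P libraries and the others had reads in every group, and their part in the peroxidase values was not tested. AT4G11290 had log2 fold changes of -1.0 in N8507, -0.84 in N8508, -0.85 in N9416 and -0.56 in Col-0, and the Col-0 call was lost without -P+Th replicate 3, -P replicate 1 or -P replicate 2.

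Among members with no assigned role, AT3G01190 fell most. It had 53.3, 70.2 and 53.9 CPM in N8508 -P+Th, against 334, 718 and 1150 CPM in N8508 -P, and 159, 118 and 265 CPM in N8507 -P+Th, against 1320, 932 and 1330 CPM in N8507 -P. In Col-0 it had 730, 354 and 228 CPM in -P+Th, against 1980, 1950 and 1050 CPM in -P. The log2 fold changes were -3.62 ± 0.32, -2.71 ± 0.35 and -1.95 ± 0.35, each without overlap and past the threshold whichever library was left out. In N9416 its log2 value was -0.06 ± 0.24 and it was not called (edgeR adjusted p = 0.861). AT1G49570 rose in all 4 genotypes. Its level was 216, 198 and 166 CPM in N8507 -P+Th, against 3.24, 3.33 and 8.89 CPM in N8507 -P, and 524, 441 and 338 CPM in Col-0 -P+Th, against 87.5, 64.9 and 44.8 CPM in Col-0 -P. The rises were 5.25 ± 0.37 and 2.70 ± 0.27 (edgeR adjusted p = 4.3e-08 and 1.3e-05), with 2.80 in N9416 and 1.19 in N8508. AT2G39040 stayed low where it rose, in N9416, with 16.7, 9.87 and 5.58 CPM in -P+Th, against 0.242, 0.189 and 0.425 CPM in -P (5.22 ± 0.63, edgeR adjusted p = 6.1e-06). AT5G64110 rose by 4.51 in N8507, 2.87 in N8508, 3.07 in N9416 and 1.64 in Col-0, and its highest group mean was 16.7 TPM.

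In Col-0 the count for this comparison rests on few libraries. It was 8 members without -P replicate 2 and 13 without -P replicate 1, against 20 with all libraries. With all 66 libraries in one fit, 17 members were called in N9416, against 28 with the N9416 libraries alone.

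**Figure D4:**
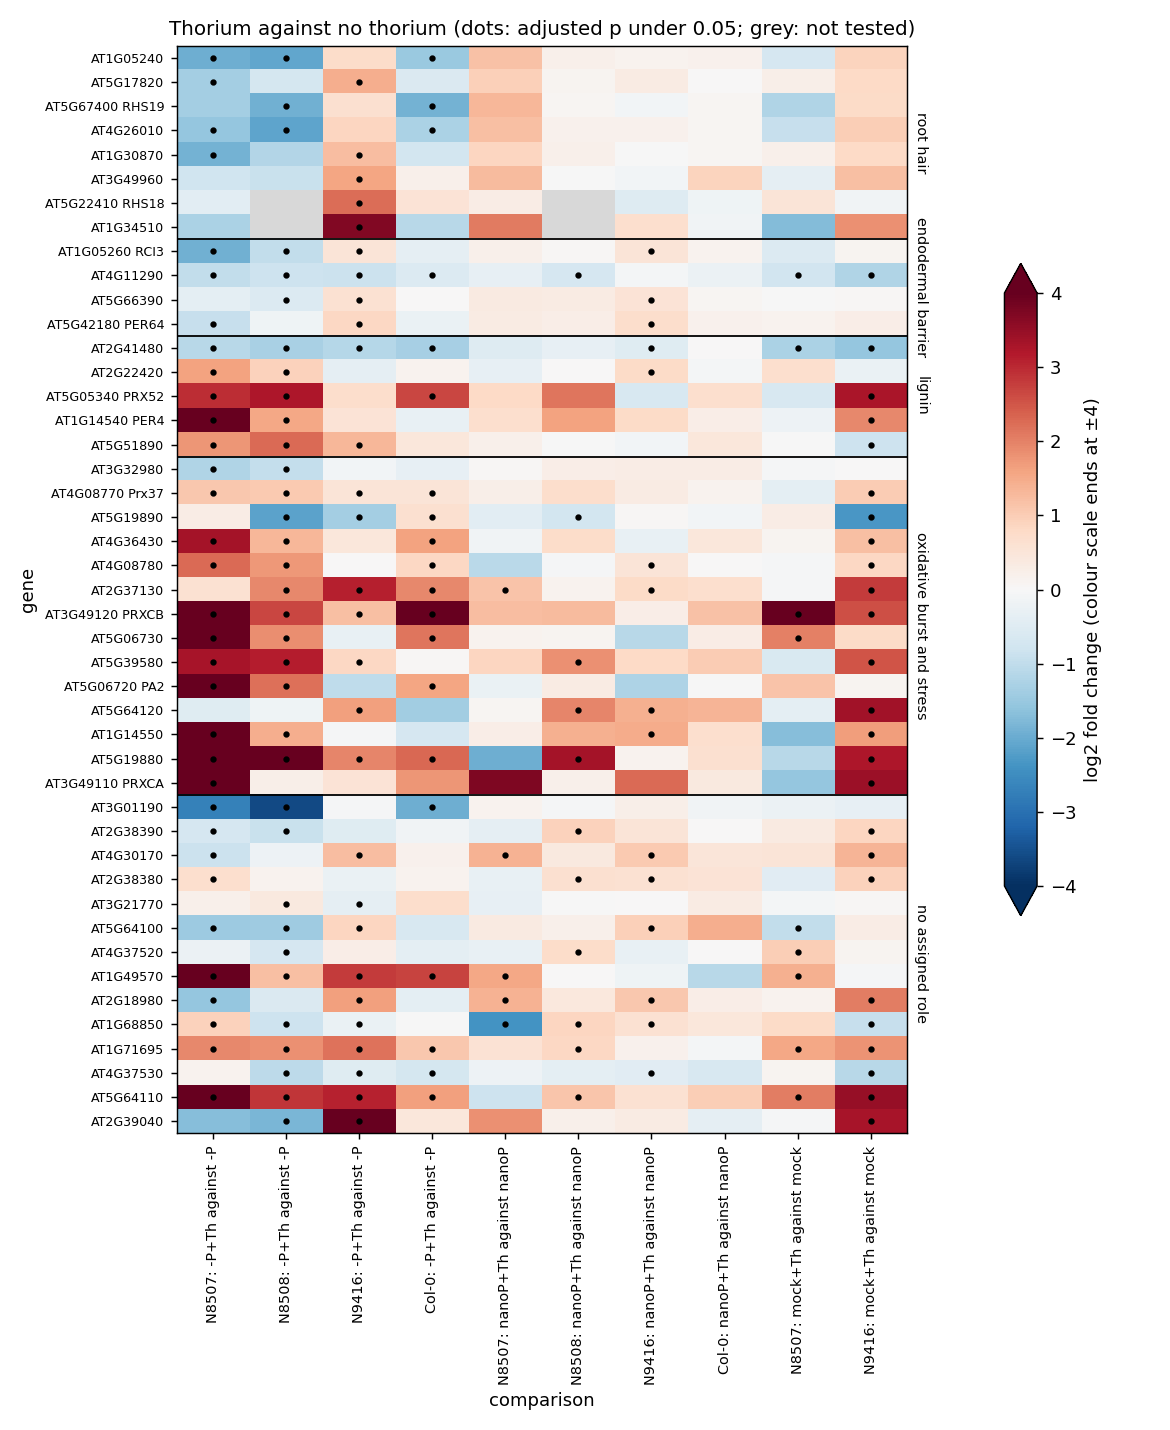
Log2 fold change of each tested member (rows by role) for thorium against no thorium on phosphate-free medium, with nanoP and on control medium (columns); red is higher with thorium, dots mark adjusted p under 0.05 and grey was not tested. Fitted values of AT3G49110 and AT5G19880 rest on few or no reads in some nanoP groups. Most dots stand in the 4 columns on -P and in the N9416 mock column, and the Col-0 nanoP column has none.

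With nano-hydroxyapatite present, thorium changed fewer members. In nanoP+Th against nanoP, 4 members were higher and 1 lower in N8507 (1.96% and 2.69% of all genes, 4.65% together), 9 and 2 in N8508 (9.22% and 7.18%, 16.4% together), and 13 and 2 in N9416 (10.5% and 11.1%, 21.7% together). In Col-0 edgeR called 0 members (0.0803% and 0.0251% of all genes, 0.105% together), with 7 at an unadjusted p under 0.05 and 3 called by DESeq2. AT1G68850 fell to 20.1, 15.8 and 22 CPM in N8507 nanoP+Th, against 75.5, 104 and 130 CPM in N8507 nanoP (-2.38 ± 0.30, edgeR adjusted p = 0.00011). The same gene rose in N8508 by 0.86 and in N9416 by 0.62. AT4G30170 had 783, 759 and 714 CPM in N8507 nanoP+Th, against 357, 184 and 331 CPM in N8507 nanoP, and 316, 362 and 358 CPM in N9416 nanoP+Th, against 112, 235 and 157 CPM in N9416 nanoP. The groups did not overlap in either line, and the log2 rises were 1.40 ± 0.26 and 1.05 ± 0.25.

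On nanoP, 3 of the 14 stress members were higher with thorium and 1 lower in N8508, and 4 were higher in N9416. The N8508 count of 3 was 1 without nanoP replicate 3. The N9416 count of 4 was 1 without nanoP+Th replicate 2 or nanoP replicate 3, 2 without nanoP+Th replicate 3 or nanoP replicate 1, and 7 without nanoP replicate 2. AT5G39580 had 124, 77.9 and 63.8 CPM in N8508 nanoP+Th, against 43.2, 10.1 and 21.1 CPM in N8508 nanoP (1.83 ± 0.42, edgeR adjusted p = 0.0086). AT5G64120 was at 54.6, 45.6 and 26.6 CPM in N8508 nanoP+Th, against 19.6, 2.68 and 10.4 CPM in N8508 nanoP, a call lost without nanoP+Th replicate 1 or nanoP replicate 3. AT5G19890 was the N8508 member that fell (-0.73 ± 0.24, edgeR adjusted p = 0.0483), a call lost without any 1 library but nanoP+Th replicate 1. AT1G14550 rose by 1.49 ± 0.36 in N9416. All 3 of RCI3, AT5G66390 and PER64 were higher in N9416, by 0.51, 0.54 and 0.71, with 6 of 7 endodermis markers higher beside them. Counts moved with single libraries. The N8507 count of 5 was 2 without nanoP replicate 2 and 3 without nanoP replicate 1 or any 1 of the nanoP+Th replicates. The N8508 count of 11 was 4 without nanoP replicate 3 and 6 without nanoP replicate 2, and the N9416 count of 15 was 9 without nanoP+Th replicate 2.

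The thorium effect itself differed between the media. In the test of the thorium effect with nanoP minus that on -P, 13 members were higher and 15 lower in N8507 (10.9% and 13.1% of all genes, 24.0% together), 14 and 8 in N8508 (17.1% and 11.7%, 28.8% together), 8 and 8 in N9416 (10.3% and 10%, 20.4% together), and 3 and 4 in Col-0 (4.45% and 3.27%, 7.72% together). PRXCB had a smaller thorium effect with nanoP, with differences of -6.85 ± 0.65 in N8507 and -3.23 ± 0.56 in Col-0 on the log2 scale (edgeR adjusted p = 2.2e-06 and 0.00251). Of the 14 stress members, 7 had a smaller effect in N8507 and 4 in N8508. Not all went this way: the stress member AT5G64120 had a difference of 2.12 in N8508. AT3G01190, which fell with thorium on -P, had a difference in the other direction in N8507 (2.86), N8508 (3.56) and Col-0 (1.81), and so did 5 of 8 root hair members in N8507 and 3 of 6 in N8508. The N8508 root hair count was 0 without any 1 of the -P+Th replicates, -P replicate 3, or replicate 1 or 2 of nanoP+Th or nanoP. The Col-0 call of AT3G01190 was lost without -P replicate 1 or 2, any 1 of the nanoP+Th replicates, or nanoP replicate 2 or 3. The Col-0 count of 7 became 3 without -P replicate 2, nanoP+Th replicate 1 or nanoP+Th replicate 2, 4 without nanoP replicate 2 or 3, and 11 without -P+Th replicate 1.

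On the control medium thorium could be followed in the lines N8507 and N9416. In mock+Th against mock, 6 members were higher and 3 lower in N8507 (8.22% and 3.59% of all genes, 11.8% together), and 19 and 6 in N9416 (27.2% and 24.5%, 51.7% together). PRXCB had 69.0, 78.8 and 60.5 CPM in N8507 mock+Th, against 1.58, 6.85 and 3.07 CPM in N8507 mock (4.19 ± 0.47, edgeR adjusted p = 1.5e-05), and rose by 2.57 ± 0.44 in N9416. PRXCB, AT1G71695 and AT5G64110 were higher in both lines, and AT2G41480 and AT4G11290 were lower in both, as they were on -P. In N8507 the calls of AT5G64110 and AT4G11290 were near the threshold: the first was lost without any 1 library but mock replicate 3, and the second without any 1 but mock replicate 2.

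In N9416, 10 of the 14 stress members were higher and 1 lower. AT5G64120 had 23.0, 67.4 and 48.1 CPM in mock+Th, against 3.02, 3.29 and 7.29 CPM in mock (3.36 ± 0.49, edgeR adjusted p = 2.2e-05). PRX52 had 25.3, 21.6 and 20.2 CPM in mock+Th, against 1.72, 3.19 and 2.14 CPM in mock (3.28 ± 0.31, edgeR adjusted p = 2.5e-07). AT5G19890 fell to 171, 137 and 190 CPM in mock+Th, against 757, 888 and 882 CPM in mock (-2.32 ± 0.17, edgeR adjusted p = 9.9e-09). All 3 genes separated the libraries without overlap. Here edgeR called 0 root hair members, with a median of 0.84, but 5 higher without mock+Th replicate 2, and 3 of 8 root hair markers were higher.

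On withdrawal of phosphate without thorium, few members were called except in N9416. Each genotype was fitted alone, and the common dispersion (the fitted spread between libraries) was unequal. It was 0.0769 in N8507, 0.0214 in N8508, 0.018 in N9416 and 0.0547 in Col-0. The same change is thus called less readily in N8507 and Col-0. At an unadjusted edgeR p under 0.05 were 19 of 45 members in Col-0, 22 of 43 in N8508 and 31 of 45 in N9416. In -P against mock, 23 members were higher and 2 lower in N9416 (20.8% and 17.3% of all genes, 38.1% together), 2 and 5 in N8508 (5.73% and 3.86%, 9.59% together), and 1 and 3 in Col-0 (3.73% and 2.88%, 6.61% together). In N8507 edgeR called 0 of 45 (3.13% and 0.776% of all genes, 3.9% together), with 4 at an unadjusted p under 0.05 and 0 called by DESeq2, and 1 was called without -P replicate 3 or mock replicate 3.

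In N9416, AT1G14550 had 7.34, 6.5 and 12.7 CPM in -P, against 1.81, 1.35 and 1.37 CPM in mock (2.54 ± 0.36, edgeR adjusted p = 4.3e-05). PER4 had 7.26, 7.16 and 15.2 CPM in -P, against 1.38, 2.13 and 2.06 CPM in mock (2.42 ± 0.36, edgeR adjusted p = 6e-05). Both genes kept apart from mock in every library. Of 8 root hair members, 5 were higher, among them AT4G26010 with 158, 64.7 and 154 CPM in -P, against 44.0, 30.5 and 40.9 CPM in mock, and 6 of 8 root hair markers were higher as well, with a summed level of 132 to 311 CPM in -P, against 73.9 to 105 CPM in mock. Their part in the peroxidase values was not tested. Of the 14 stress members 8 were higher and 1 lower. The count of higher members was 4 without -P replicate 1 and 5 without mock replicate 3.

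In Col-0, AT5G19890 fell to 422, 347 and 322 CPM in -P, against 988, 958 and 1200 CPM in mock (-1.52 ± 0.18, edgeR adjusted p = 6.5e-05). AT1G49570 fell to 87.5, 64.9 and 44.8 CPM in -P, against 232, 197 and 291 CPM in mock (-1.86 ± 0.27, edgeR adjusted p = 0.00035). AT4G30170 rose to 589, 620 and 320 CPM in -P, against 229, 210 and 149 CPM in mock (1.39 ± 0.31, edgeR adjusted p = 0.0108), a call lost without -P replicate 2 or mock replicate 3. In N8508, AT5G06730 rose to 78.6, 76.8 and 67.3 CPM in -P, against 29.3, 38.9 and 18.8 CPM in mock (1.36 ± 0.24), while AT5G39580 fell to 8.16, 24.2 and 25.6 CPM in -P, against 83.4, 58.6 and 67.4 CPM in mock (-1.85 ± 0.43), a call lost without mock replicate 1. The Col-0 count of 4 became 12 without -P replicate 3, with 5 root hair members higher, and 2 without -P replicate 2 or mock replicate 3. The N8508 count of 7 became 11 without -P replicate 3, 1 without mock replicate 1 and 4 without mock replicate 3.

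**Figure D5:**
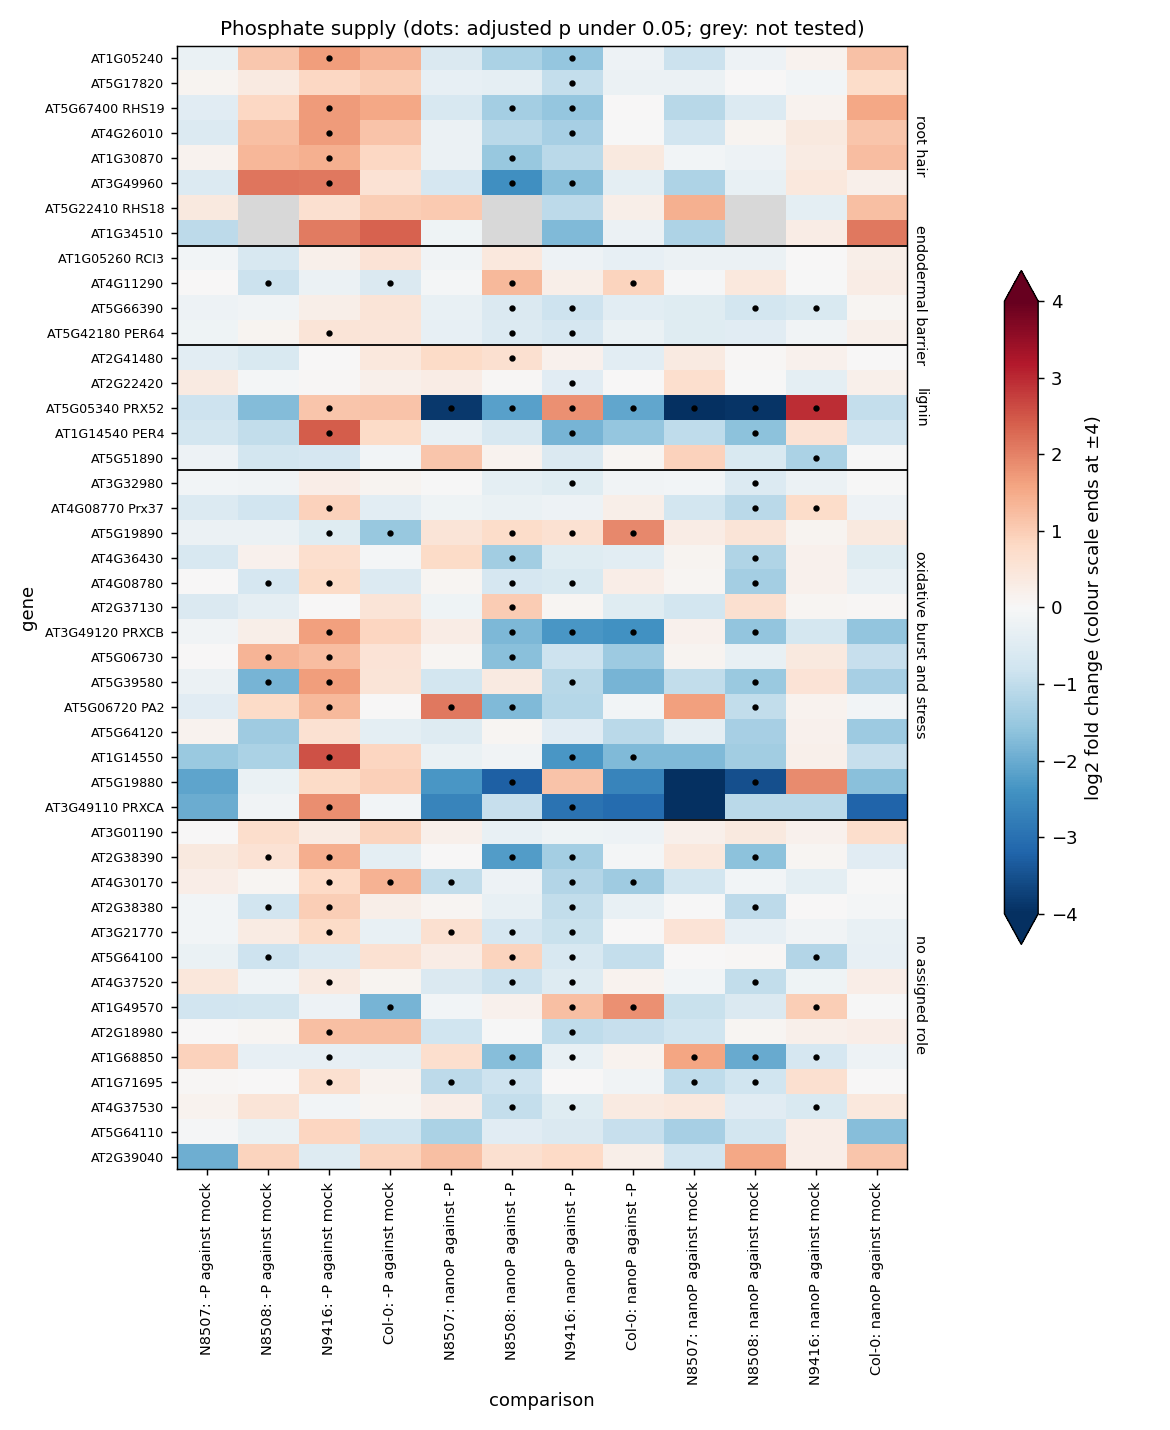
Log2 fold change of each tested member (rows by role) for -P against mock, nanoP against -P and nanoP against mock (columns, genotypes in each); red is higher in the medium named first, dots mark adjusted p under 0.05 and grey was not tested. The N9416 column of -P against mock holds 25 dots, while the N8507 column of it and the Col-0 column of nanoP against mock hold none.

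With nano-hydroxyapatite in the phosphate-free medium, many members were called lower in N8508 and N9416, the genotypes with the smaller fitted spread. In nanoP against -P, 5 members were higher and 18 lower in N8508 (17.7% and 20.3% of all genes, 38.0% together), 3 and 24 in N9416 (15.2% and 15.1%, 30.2% together), 2 and 3 in N8507 (2.11% and 2.38%, 4.49% together), and 3 and 4 in Col-0 (2.6% and 3.49%, 6.1% together). PRXCB had 11.3, 10.4 and 10.7 CPM in N9416 nanoP, against 85.0, 54.5 and 24.9 CPM in N9416 -P, and 3.03, 3.03 and 2.76 CPM in Col-0 nanoP, against 20.0, 11.5 and 15.7 CPM in Col-0 -P. The log2 fold changes were -2.32 ± 0.45 and -2.42 ± 0.41 (edgeR adjusted p = 0.00097 and 0.00151), with -1.79 ± 0.42 in N8508. AT2G38390 had 319, 309 and 335 CPM in N8508 nanoP, against 1400, 1520 and 1630 CPM in N8508 -P (-2.23 ± 0.15, edgeR adjusted p = 5.2e-08).

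AT5G19890 was higher with nanoP in 3 genotypes. It had 1160, 1310 and 1640 CPM in Col-0 nanoP, against 422, 347 and 322 CPM in Col-0 -P (1.92 ± 0.18, edgeR adjusted p = 6.8e-06), and rose by 0.74 in N8508, a call lost without -P replicate 1, -P replicate 2 or nanoP replicate 1, and by 0.61 in N9416. PRX52 fell in N8507, with 0.627, 0.122 and 0.857 CPM in nanoP, against 7.23, 9.13 and 5.72 CPM in -P (-3.86 ± 0.77), but rose in N9416, with 22.9, 20.8 and 9.82 CPM in nanoP, against 3.95, 5.84 and 5.45 CPM in -P (1.83 ± 0.28). Neither pair of groups overlapped. Of the root hair members, 5 of 8 were lower in N9416 and 3 of 6 in N8508, beside 3 of 8 root hair markers lower in each line. The N9416 root hair count was 1 without replicate 1 of -P or nanoP and 2 without replicate 3 of either, and the N8508 count was 0 without -P replicate 3 or nanoP replicate 2 and 1 without nanoP replicate 1. The Col-0 count of 7 became 11 without -P replicate 3 and 4 without nanoP replicate 3. The N8507 count of 5 became 2 without nanoP replicate 3 or any 1 of the -P replicates, and 3 without nanoP replicate 1.

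Against the control medium, few members were called on nanoP outside N8508. The unequal spread between libraries given above applies here too, and 20 of 45 members in N8507 were at an unadjusted edgeR p under 0.05. In nanoP against mock, 1 member was higher and 2 lower in N8507 (1.94% and 1.11% of all genes, 3.05% together), and 3 and 5 in N9416 (8.1% and 6.28%, 14.4% together). In N8508, 16 were lower (15.4% of all genes) and edgeR called 0 higher (13.5%, 28.9% together), with 3 higher at an unadjusted p under 0.05 and 1 by DESeq2. In Col-0 edgeR called 0 (0.271% and 0.291% of all genes, 0.562% together), with 9 at an unadjusted p under 0.05 and 1 by DESeq2. Of the 14 stress members, 8 were lower in N8508, and 5 without mock replicate 1, mock replicate 2 or nanoP replicate 2. AT1G68850 had 30.5, 27.3 and 35.9 CPM in N8508 nanoP, against 131, 120 and 131 CPM in N8508 mock (-2.02 ± 0.13, edgeR adjusted p = 8.1e-08), but 75.5, 104 and 130 CPM in N8507 nanoP, against 25.5, 33.6 and 42.4 CPM in N8507 mock (1.59 ± 0.29, edgeR adjusted p = 0.00555). Both changes separated the libraries, in opposite directions. PRX52 also differed in sign, at -4.68 ± 0.77 in N8507, -3.91 ± 0.76 in N8508 and 2.95 ± 0.31 in N9416, and its highest N8507 nanoP library was at 0.857 CPM.

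Each line differed from Col-0 on the control medium in many members. Against Col-0 on mock, 10 members were higher and 15 lower in N8507 (18.1% and 18.0% of all genes, 36.1% together), 16 and 10 in N8508 (14.8% and 12.4%, 27.2% together), and 5 and 13 in N9416 (15.8% and 16.0%, 31.8% together). All 3 comparisons share the Col-0 mock libraries. AT1G49570 had 9.41, 6.65 and 10.2 CPM in N8507 mock and 26.1, 23.9 and 22.1 CPM in N9416 mock, against 232, 197 and 291 CPM in Col-0 mock. Its log2 values were -4.78 ± 0.34 and -3.32 ± 0.32 (edgeR adjusted p = 3.3e-16 and 5.8e-12), with -1.84 ± 0.30 in N8508. AT4G37530 had 83.4, 88.6 and 74.2 CPM in N9416 mock, 45.2, 37.4 and 41.9 CPM in N8508 mock and 44.2, 20.7 and 36.3 CPM in N8507 mock, against 9.17, 11.5 and 12.4 CPM in Col-0 mock, and was higher in each line without overlap (2.90, 1.91 and 1.61). Its near copy AT4G37520 was higher in N9416 (0.78) and N8508 (0.51) but lower in N8507 (-0.53).

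In N8508 on mock, 5 of 8 root hair members were lower and 6 of 14 stress members higher than in Col-0. AT3G49960 had 2.34, 3.89 and 3.45 CPM in N8508 mock, against 33.7, 32.3 and 25.0 CPM in Col-0 mock (-3.22 ± 0.71, edgeR adjusted p = 0.00036), and RHS18 was at 0.0973, 0.271 and 0.220 CPM in N8508 mock, against 3.12, 2.17 and 3.01 CPM in Col-0 mock. Of 8 root hair markers, 5 were lower too, with a summed level of 44.0 to 53.5 CPM in N8508 mock, against 109 to 146 CPM in Col-0 mock, and their part in these values was not tested. PRXCB had 80.2, 111 and 38.9 CPM in N8508 mock, against 13.8, 5.97 and 6.62 CPM in Col-0 mock (3.12 ± 0.48, edgeR adjusted p = 8.6e-07). The count of 6 higher stress members was 3 without Col-0 mock replicate 2 and 2 without Col-0 mock replicate 3. Stress members did not all go this way in N8508: AT5G19890 averaged 439 CPM in N8508 mock, below each Col-0 mock library. In N9416 and N8507, 6 of 14 stress members were lower than in Col-0 in each, and 1 and 2 were higher. Among those lower was AT1G14550, with 1.81, 1.35 and 1.37 CPM in N9416 mock, against 18.8, 14.9 and 11.2 CPM in Col-0 mock. AT2G37130 was high in N8507, with 340, 177 and 145 CPM in N8507 mock, against 36.9, 35.6 and 23.1 CPM in Col-0 mock (2.79 ± 0.29).

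The response to -P also differed from that of Col-0 in some members, though in N8507 in no larger a share than over all genes. For each line minus Col-0 in -P against mock, 2 members were higher in N8507 (3.47% of all genes, 5.54% in either direction), 1 higher and 7 lower in N8508 (3.37% and 3.08%, 6.45% together), and 7 higher in N9416 (3.95%, 7.15% in either direction). In N8507 and N9416, edgeR called 0 members lower (2.06% and 3.2% of all genes), with 15 and 1 at an unadjusted p under 0.05 and 0 by DESeq2 in both. AT5G19890, which fell in Col-0, had a difference of 1.32 ± 0.30 in N8507, 1.29 ± 0.30 in N8508 and 1.04 ± 0.30 in N9416, and the N8508 call was lost without N8508 -P replicate 3. The N8508 count of 8 became 3 without N8508 -P replicate 1 or Col-0 mock replicate 2, 4 without Col-0 -P replicate 1 or N8508 mock replicate 1, and 5 without Col-0 mock replicate 3. The N8507 count of 2 became 5 without Col-0 -P replicate 3 and 4 without N8507 -P replicate 1 or N8507 mock replicate 3, and the N9416 count of 7 became 4 without Col-0 -P replicate 2.

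Other genes of the pathway were followed in -P+Th against -P. There 13.9%, 23.9%, 19.9% and 13.5% of all genes were lower in N8507, N8508, N9416 and Col-0. In the same order, 15.9%, 23.2%, 20.1% and 11.9% were higher. Of 14 enzymes of monolignol synthesis, which make the lignin units that peroxidases join, 6 were lower and 1 higher in N8507, 8 lower in N8508, 11 lower and 1 higher in N9416, and 11 lower in Col-0. Of 12 laccases, the other lignin-joining oxidases, 4, 6, 3 and 6 were lower in N8507, N8508, N9416 and Col-0, and 2 and 1 were higher in N8508 and N9416. Of 8 NADPH oxidases tested, the plasma membrane enzymes that feed peroxidases with reactive oxygen, 3, 5, 4 and 5 were lower in the same order, and 1 was higher in each of N8507, N8508 and N9416. RBOHD rose by 1.43 in N8507 and by 0.28 in N8508, and fell by 0.64 in N9416. UPB1, a transcription factor known to repress root peroxidases, rose by 1.65 in N9416 and 1.52 in Col-0. Of the family members outside the list, 1 was higher and 5 lower in N8507 (of 15), 5 and 5 in N8508 (of 15), 4 and 5 in N9416 (of 15), and 2 and 4 in Col-0 (of 16).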

How the data were processed

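The samples are 66 bulk RNA libraries of Arabidopsis roots in 22 labelled groups of 3, and replicates were numbered in accession order. RNA was taken with a Spectrum kit and libraries were made with a directional NEBNext kit, per the labels' protocols. The authors deposited Salmon tables of estimated counts and of TPM per transcript model, per the file headers. Trimmomatic, Salmon 1.3.0 and the build TAIR10 come from the submitters' processing notes, and bias and strand settings are not given in the sources used here. The 32875 models hold coding sequence only, since 99.99% of lengths are multiples of 3.

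The deposited estimated counts were summed to 27313 loci and rounded to whole numbers, with 9396787 to 16756417 assigned reads per library. The main test was edgeR 4.0.16 (R 4.3.3): TMM scaling, filterByExpr by group, the quasi-likelihood F test within each genotype, and for contrasts with Col-0 a fit of all 66 libraries. P-values were adjusted by Benjamini-Hochberg over all genes tested and called under 0.05. SE is the fold change divided by the square root of F. Printed CPM values are TMM-scaled over all 66 libraries, while TPM as deposited by the authors serves to compare genes. On simulated counts for Col-0 -P against mock (19931 genes), 60% of 2-fold and 95% of 4-fold changes were recovered, and 3.12% of calls were false. The changes were set in 100 genes at each size, all averaging over 5 CPM. Recovery for lower genes, other genotypes and other contrasts was not tested.

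The members and lists were chosen with earlier results of these data known, and roles come from general knowledge. Up to 4 risen and 4 fallen members per comparison, with at least 2 CPM, were named by the size of the change. Other members named were picked after their values were seen. Shared words and lengths come from RefSeq TAIR10.1, where 45 of the 49 coding lengths match the files. Alternatives were RLE scaling, DESeq2 1.42.0, no filter on low counts, other sets of libraries in the fit, and leaving out each library.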

Additional observations from a re-analysis of the deposited data

Results flagged for a closer look

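The results below were singled out because the same contrast was tested directly for a difference between media or between genotypes. No explanation was weighed for them.

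The thorium effect with nanoP minus that on -P differed for 28 members in N8507, 22 in N8508, 16 in N9416 and 7 in Col-0. Over all genes, 24.0%, 28.8%, 20.4% and 7.72% differed in the same order. In N8507 the largest positive log2 differences were 3.12 for AT1G05240, 2.95 for AT2G18980, 2.86 for AT3G01190 and 2.75 for AT4G26010. The largest negative ones were -6.85 for PRXCB (AT3G49120), -5.35 for AT5G64110, -5.31 for PA2 (AT5G06720) and -4.62 for AT5G06730. In N8508 they were 3.56 for AT3G01190, 2.28 for AT1G05240, 2.28 for AT4G26010 and 2.12 for AT5G64120, and -2.32 for AT5G51890, -1.87 for PA2, -1.80 for AT4G08780 and -1.78 for AT2G37130. AT3G01190 and AT1G05240 were among the 4 largest positive differences in both lines.

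In N9416 other genes led. Positive differences were 1.54 for AT1G14550, 1.42 for AT5G19890, 1.13 for AT2G22420 and 1.02 for AT2G38390. Negative ones were -4.89 for AT2G39040, -2.98 for AT1G49570, -2.74 for RHS18 (AT5G22410) and -2.32 for AT2G37130. Reads were few for some of these. AT2G39040 had 10 reads in the whole N9416 -P group, 19 in nanoP and 21 in nanoP+Th, and RHS18 had 27 in N9416 nanoP+Th. In Col-0 all 7 called were named by the rule: 2.09 for AT5G64100, 1.81 for AT3G01190 and 1.34 for AT2G41480, and -3.80 for AT1G49570, -3.23 for PRXCB, -1.24 for AT2G37130 and -1.16 for AT1G71695.

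The response to -P minus that of Col-0 differed for 2 members in N8507, 8 in N8508 and 7 in N9416. Over all genes, 5.54%, 6.45% and 7.15% differed in the same order, and the N8507 count is no larger a share than that. In N8507 these were AT5G19890 at 1.32 and AT1G68850 at 1.29. In N8508 AT5G19890 was at 1.29, against -2.88 for PRX52 (AT5G05340), -2.35 for AT5G39580, -1.43 for AT5G64100 and -1.29 for AT4G30170. In N9416 AT2G38390 was at 1.84, AT1G49570 at 1.66, Prx37 (AT4G08770) at 1.35 and AT4G08780 at 1.33. These 3 contrasts share the Col-0 libraries.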

How the results depend on the processing

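Of 187 named gene results, 130 kept their call in every fit without 1 library, 158 under every other setting and 123 under all, and none changed sign. Of the alternative counts of called members, 327 lay within 1.5 times of the value reported and 64 did not. With DESeq2, nanoP against mock called 1 member in Col-0 (0 reported) and 6 in N8507 (3), and nanoP+Th against nanoP called 3 in Col-0 (0). With all 66 libraries in one fit, -P against mock gave 1 in N8507 (0) and 4 in N8508 (7), nanoP against -P gave 8 in N8507 (5), 16 in N9416 (27) and 12 in Col-0 (7), and nanoP against mock gave 6 in N8507 (3) and 5 in N9416 (8). The same fit gave 17 in N9416 (28) for -P+Th against -P, 6 in N9416 (15) and 1 in Col-0 (0) for nanoP+Th against nanoP, 14 in N8507 (9) for mock+Th against mock, and 9 in N9416 (16) for the thorium difference between media. With only N8508 and Col-0 libraries, 4 members (8) differed in the response to -P. A limit of 62% on the effective length, chosen after seeing the data, left out replicate 3 of both N8507 nanoP and N8507 -P+Th, and replicate 1 of Col-0 -P+Th. It gave 7 in Col-0 (4) and 2 in N8507 (0) for -P against mock, 6 in N8507 (3) for nanoP against mock, 2 in Col-0 (0) for nanoP+Th against nanoP, 11 in Col-0 (7) for the thorium difference and 6 in N8507 (2) for the difference from Col-0. The planned limit of 70% would have removed every library and was not run. Without the Col-0 -P+Th group, Col-0 had 8 members (4) for -P against mock and 2 (0) for nanoP+Th against nanoP. Leaving out each library gave 0 to 1 in N8507, 1 to 11 in N8508 and 2 to 12 in Col-0 for -P against mock, and 2 to 6 in N8507 and 4 to 11 in Col-0 for nanoP against -P. It gave 8 to 19 in Col-0 for -P+Th against -P, 2 to 5 in N8507, 4 to 11 in N8508 and 9 to 20 in N9416 for nanoP+Th against nanoP, 3 to 11 in Col-0 for the thorium difference, and 2 to 5 in N8507, 3 to 9 in N8508 and 4 to 7 in N9416 for the difference from Col-0. Fits without a library or group have fewer libraries to estimate the spread; for the other changes the cause was not tested. No paired analysis was possible because the labels give no replicate numbers. Low members such as AT1G34510, with 23 reads in all 3 N9416 -P libraries, limit what depth can show.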
